A study of Homo sapiens with 6 samples.

Results

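Fatty acid oxidation and oxidative metabolism were followed through the chromatin of 10 genes: the regulators PPARGC1A, PPARA, ESRRA and ESRRG, the fatty acid uptake and carrier genes CD36, LPL and FABP3, and the mitochondrial genes CPT1B, PDK4 and CKMT2. Each gene was given a fixed window on the hg19 genome, 40 to 680 kb long, and a peak belonged to the window that held its midpoint. Of 157560 sites in all, 94 lay in these windows. The windows were set by position and not by any measured value.

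The cells were ventricular-like cardiomyocytes made from H9, a human embryonic stem cell line, and taken at day 15 of differentiation. Cells with ZNF436 knocked down (it encodes a KRAB-type zinc finger protein) were compared with control cells, with 3 independent differentiations in each group. Open chromatin was measured by ATAC-seq on 50000 cells per replicate, in which the Tn5 transposase cuts accessible DNA, and 1 list of called peaks was deposited for each library. All 6 libraries come from the same cell line, and neither the knockdown method nor the control construct is given in the sources used here. Neither the ZNF436 locus nor cardiomyocyte marker genes were analysed here, so that the knockdown and the cell type were taken from the labels.

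The adult heart draws most of its energy from fatty acids, and cardiomyocytes acquire this capacity as they mature. PPARGC1A encodes PGC-1alpha, a coactivator that joins the nuclear receptors PPARalpha (PPARA) and the estrogen-related receptors alpha and gamma (ESRRA, ESRRG) at genes of mitochondrial biogenesis and fatty acid oxidation. Among the genes these receptors are known to drive are the other 6: LPL releases fatty acids from circulating lipoproteins, CD36 takes them into the cell, FABP3 carries them in the cytoplasm, CPT1B commits them to entry into mitochondria, PDK4 holds back the use of pyruvate, and CKMT2 passes mitochondrial energy on to creatine.

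Promoters, from 250 bases before to 50 bases after a gene's start, were taken from RefSeq (GRCh38.p14) for 8 of the 10 genes. None was examined for the rest. The promoters below are shown for 2 regulators with more peaks in every knockdown library than in any control library (ESRRG, PPARGC1A) and for a regulator and an enzyme whose groups overlapped in peak number (ESRRA, PDK4). Capitals mark AAGGTCA, the core element bound by estrogen-related receptors. The PPARGC1A promoter is that at chr4:23881052-23881351 on the minus strand, the ESRRG promoter that at chr1:217076943-217077242 on the minus strand, the ESRRA promoter that at chr11:64305274-64305573 on the plus strand, and the PDK4 promoter that at chr7:95596467-95596766 on the minus strand, all on GRCh38.p14 and written 5′ to 3′ along the gene.
PPARGC1A: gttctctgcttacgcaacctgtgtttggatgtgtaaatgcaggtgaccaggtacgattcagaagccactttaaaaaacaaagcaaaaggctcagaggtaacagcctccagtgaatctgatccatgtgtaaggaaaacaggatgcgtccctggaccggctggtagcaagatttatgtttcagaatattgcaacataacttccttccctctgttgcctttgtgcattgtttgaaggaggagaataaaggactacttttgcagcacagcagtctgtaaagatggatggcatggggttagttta
ESRRG: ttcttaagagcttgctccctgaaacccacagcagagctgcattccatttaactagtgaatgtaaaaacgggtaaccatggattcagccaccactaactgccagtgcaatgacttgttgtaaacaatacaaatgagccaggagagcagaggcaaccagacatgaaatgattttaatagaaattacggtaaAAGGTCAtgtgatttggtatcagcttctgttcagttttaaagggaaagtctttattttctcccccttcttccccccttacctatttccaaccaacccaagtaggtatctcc
ESRRA: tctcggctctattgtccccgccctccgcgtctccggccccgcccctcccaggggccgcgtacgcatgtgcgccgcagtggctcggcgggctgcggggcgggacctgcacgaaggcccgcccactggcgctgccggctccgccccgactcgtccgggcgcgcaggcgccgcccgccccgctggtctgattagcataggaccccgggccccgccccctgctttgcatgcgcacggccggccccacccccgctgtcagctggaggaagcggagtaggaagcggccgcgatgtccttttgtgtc
PDK4: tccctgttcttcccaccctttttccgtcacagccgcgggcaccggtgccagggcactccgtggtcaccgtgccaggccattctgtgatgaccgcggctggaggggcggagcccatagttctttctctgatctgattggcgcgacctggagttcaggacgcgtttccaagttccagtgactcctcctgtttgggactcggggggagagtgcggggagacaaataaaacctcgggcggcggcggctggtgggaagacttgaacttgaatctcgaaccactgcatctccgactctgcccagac

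These positions belong to another build than the peaks and cannot be set against them, even where the digits look alike. The GC content was 44% in the PPARGC1A promoter shown, 41.7% in that of ESRRG, 75% in that of ESRRA and 60.7% in that of PDK4. ESRRG has 8 listed starts, whose promoters ran from 41.7% to 70% GC. PPARGC1A has 2, with 44% and 72% GC, which lie 591.8 kb apart, farther than its window of 150 kb is long. The ESRRG promoter shown had the lowest GC of the 8 and was the only one of them with AAGGTCA. Any contrast in GC or motif among the promoters shown thus depends on which start was shown. AAGGTCA was searched on both strands. It occurred in 1 of the 22 promoters examined for the 8 genes, against 3.92% of all 35116 listed promoters. That was the ESRRG promoter shown above, with the match at 61 to 55 bases before the start. LPL and CPT1B were not among the genes examined, whether or not RefSeq lists promoters for them. The longer form TCAAGGTCA, which contains AAGGTCA, was in 0 of the 22 and in 0.353% of all promoters, and the PPAR element of paired AGGTCA repeats 1 base apart was in 0 of the 22 and in 0.0228% of all. A match, or its lack, in these letters says nothing of binding.

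The knockdown lists were longer over the whole genome, with 115864, 102454 and 87871 peaks in knockdown replicates 1, 2 and 3 against 50719, 53662 and 68342 in control replicates 1, 2 and 3. The read depth behind these lists is unknown, and neither depth nor signal over background can be told apart from the group here. In the 10 windows together there were 80, 67 and 66 peaks in the knockdown libraries, against 32, 28 and 45 in the control libraries. The mean was 71.0 ± 7.81 peaks in knockdown and 35.0 ± 8.89 in control (SD, n = 3 each), a ratio of 2.03 ± 0.561. As a share of the library's own peaks, the windows held 0.0699 ± 0.00491% in knockdown and 0.0604 ± 0.00723% in control, a ratio of 1.16 ± 0.161. The mean peak length was 477 ± 26.0 bp in knockdown and 473 ± 20.9 bp in control. These sums carry no test, since the genes were chosen with results of these data known.

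Peaks were counted apart for the regulators and for the genes of uptake and energy use. The 4 regulator windows held 61, 48 and 52 peaks in knockdown, against 20, 16 and 34 in control. The other 6 windows held 19, 19 and 14 peaks in knockdown, against 12, 12 and 11 in control. In lists cut to the 50719 highest-scoring peaks each, so that all were equally long, the regulators held 26, 29 and 26 peaks in knockdown against 20, 15 and 25 in control. The other 6 windows then held 9, 12 and 9 peaks in knockdown against 12, 12 and 10 in control. In these equally long lists the mean peak was 604 ± 13.9 bp long in knockdown and 452 ± 18.8 bp in control at the regulators, and 876 ± 125 bp in knockdown and 594 ± 114 bp in control at the other genes (SD, n = 3 each). The cut kept the top 43.8% to 57.7% of each knockdown list but 74.2% to 100% of each control list. In the full lists the mean peak was 437 ± 34 bp in knockdown and 426 ± 23 bp in control at the regulators. At the other genes it was 604 ± 31 bp in knockdown and 581 ± 97 bp in control. The effect of the cut on peak length over the genome was not examined. Whether the 2 sets of genes differ was not tested, and the regulator windows are also longer on average, since they include the 680 kb of ESRRG.

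**Figure D1:**
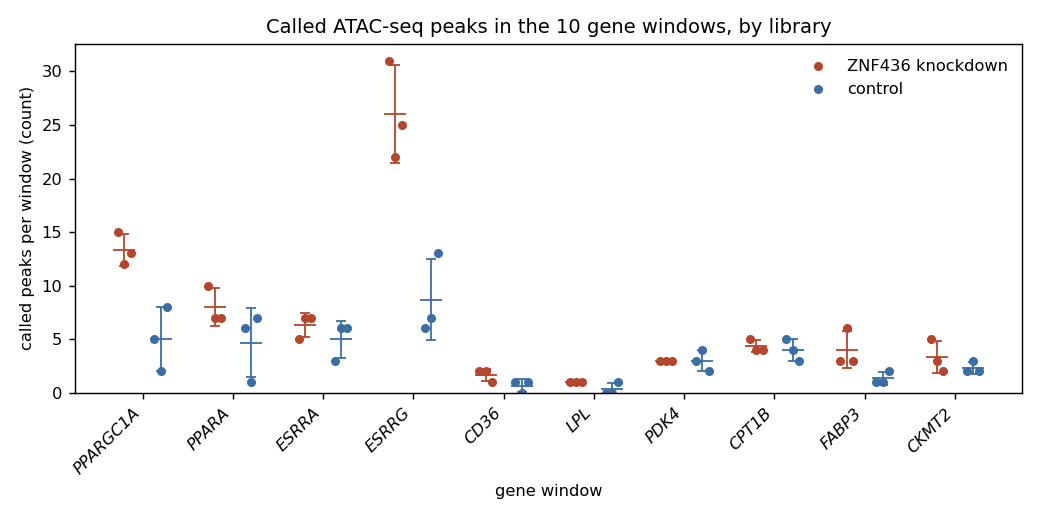
Number of called ATAC-seq peaks (vertical axis, count) in each of the 10 gene windows (horizontal axis), with a point for each library, a horizontal bar for the mean and whiskers for the SD of 3 knockdown (red) and 3 control (blue) libraries. The groups are separate at ESRRG, PPARGC1A and FABP3, while at PDK4 both groups average 3 peaks.

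Every window with a mean of at least 2 peaks was tested as a share of the library's peaks, in 1 limma fit together with 100 kb bins over the genome, 13443 rows in all. Changes are on the scale of log2((peaks + 0.5) / library total), knockdown minus control, and are given relative to the median of all rows, which was -0.07. The adjusted p-values test the change before this shift. Of all rows, 1.61% were higher and 4.28% lower in knockdown at an adjusted p under 0.05, which was 217 and 576 rows. With scaling to the median ratio there were 243 higher and 306 lower rows, and with no scaling 5822 and 34. CD36 and LPL had too few peaks for the test. Of the 8 windows tested, 1 was higher, that of ESRRG, and 0 were lower, against 1 higher and 2 lower at an unadjusted p under 0.05. At that unadjusted level 9.66% of all rows were higher and 16.6% lower, so that 1 and 2 of 8 are near the background. The median change of the 8 before the shift was -0.14. In peak numbers without scaling, 3 windows (PPARGC1A, ESRRG and FABP3) had knockdown libraries all above the control libraries, as did 44.4% of all rows, so that 3 of 8 is near the background.

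**Figure D2:**
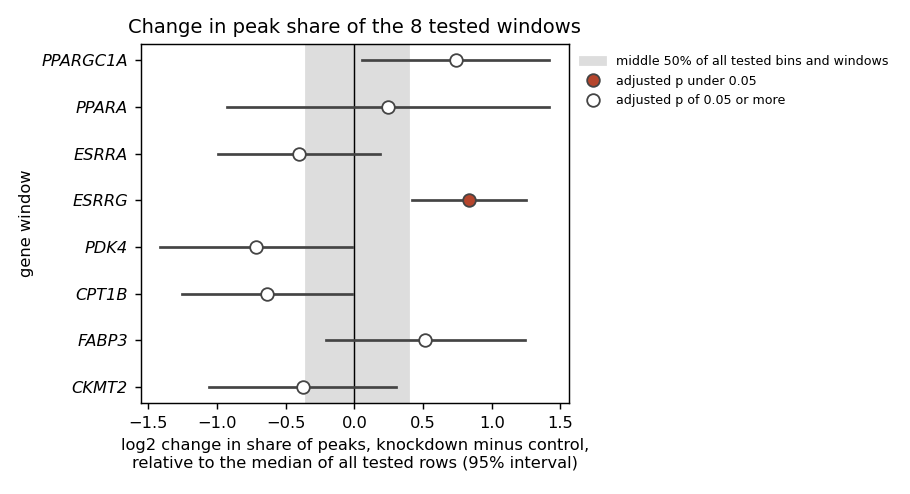
Log2 change in the share of peaks (horizontal axis, knockdown minus control, relative to the median of all tested rows) for the 8 tested windows (vertical axis), with 95% intervals from limma moved by the same median. ESRRG, at 0.84, is the window filled in red as past the threshold, and the grey band holds the middle 50% of all tested rows.

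The window of ESRRG (chr1, 216.65 to 217.33 Mb), the estrogen-related receptor gamma, rose in its share of peaks. It held 31, 22 and 25 peaks in knockdown replicates 1, 2 and 3, against 6, 7 and 13 in control replicates 1, 2 and 3. All knockdown libraries were above all control libraries, and control replicate 3 was the nearest to them. The relative log2 change was 0.84 with a 95% interval of 0.42 to 1.25 (limma, adjusted p = 0.0368), and was positive under all 18 alternatives, with adjusted p from 0.00487 to 0.239. The call held in 11 of the 18. Among these, counting peaks with any overlap with the window gave the main values again, so it could not move the call. The lowest adjusted p came without scaling, where 5822 of 13443 rows were higher. With bins of 1 Mb, where the call also held, 570 of 2858 rows were higher. It was lost with random thinning to equal length (0.80, limma adjusted p = 0.190) and with equally long lists by score (0.82, limma adjusted p = 0.177), where the libraries held 14, 12 and 13 peaks in knockdown against 6, 6 and 10 in control. It was also lost without knockdown replicate 1 (limma adjusted p = 0.150) or 3 (0.132) and without control replicate 1 (0.0848) or 2 (0.0672). With the stronger 50% of each list the change was 1.72 (limma adjusted p = 0.0172), where 135 of 7616 rows were higher. Peaks covered 10043, 7994 and 9232 bp in knockdown, against 1813, 1594 and 3605 bp in control.

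Those peaks formed 35 sites over the 680 kb of the ESRRG window, or 5.15 per 100 kb. In knockdown, 17 of the 35 sites were called in all 3 libraries, against 3 in all 3 control libraries. Over the genome these patterns held for 40.1% and 19.1% of sites. There were 20 sites with no control library and 1 with no knockdown library, beside 47.7% and 10.7% of sites over the genome. These differences from the genome were not tested. All 3 knockdown and no control library called 5 sites, or 14.3%. Over the genome, 7.72% of sites had this pattern and 0.131% had the opposite one, which no site of the 10 windows had.

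The highest-ranked of these 5 sites was chr1:217076516-217077057, whose peak scores stood at percentiles 72.3, 80.6 and 65.7 of the 3 knockdown lists. The score is the authors' value for a peak, and a percentile ranks it within 1 list. The next were chr1:217307920-217308553, with percentiles of 48.4, 58.3 and 31.2, and chr1:216790549-216791036, with 34.8, 26.4 and 50.9. The other 2 ranked lower, and the percentiles of all 5 ran from 4.44 to 80.6. From the nearest site that all 6 libraries called, the site at 217076516 lay 179.3 kb away, that at 217307920 lay 318.5 kb away and that at 216790549 lay 15.7 kb away.

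The site of ESRRG that all 6 libraries called with the highest ranks was chr1:216896306-216897204. Its peaks stood at percentiles 93.8, 95.0 and 97.4 in knockdown and 90.5, 89.8 and 91.0 in control. It covered 625, 449 and 899 bp in knockdown, against 559, 346 and 381 bp in control, and the groups overlapped. Both groups thus ranked this site high.

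PPARGC1A, the coactivator, had more peaks in each knockdown library than in any control library, but its share of peaks did not pass the test. Its window (chr4, 23.77 to 23.92 Mb) held 15, 12 and 13 peaks in knockdown, against 5, 2 and 8 in control. The groups did not overlap. As a share of the library the relative log2 change was 0.74 with a 95% interval of 0.05 to 1.42 (limma, adjusted p = 0.198). Before the shift by the median the interval was -0.02 to 1.35, which includes 0 (limma, unadjusted p = 0.0552). The relative change was 0.31 without control replicate 2, which had the fewest peaks (limma adjusted p = 0.542). It was 0.99 when covered bases were tested in place of peaks (limma adjusted p = 0.0357), where 844 of 13875 rows were higher. With lists of equal length there were 6, 9 and 7 peaks in knockdown, against 5, 2 and 5 in control.

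The bases covered in the PPARGC1A window were 6121, 5188 and 5034 bp in knockdown, against 1241, 792 and 2669 bp in control. Of its 17 sites, 10 had a peak in each knockdown library and 2 a peak in each control library, beside the 40.1% and 19.1% of sites over the genome. All 3 knockdown and no control library called 5 of the 17, or 29.4%, set against the 7.72% of the genome. The highest-ranked were chr4:23819642-23820168, with score percentiles of 65.2, 52.6 and 65.7 in the knockdown lists, chr4:23855569-23856098, with 55.2, 67.1 and 46.9, and chr4:23879352-23879625, with 55.2, 58.3 and 24.7. The last of them lay 1.17 kb from a site that all 6 libraries called, and the other 2 lay 60.6 and 24.7 kb from the nearest one.

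At the leading site of PPARGC1A, chr4:23890472-23892542, all 6 libraries had a peak, but of different extent. It covered 1848, 1640 and 1782 bp in knockdown, against 702, 602 and 965 bp in control, a mean of 1757 ± 106 bp in knockdown and 756 ± 188 bp in control (SD, n = 3 each). The score percentiles were 97.6, 97.7 and 93.7 in knockdown and 88.1, 90.5 and 91.0 in control. At the other site shared by all libraries, chr4:23880798-23881480, peaks covered 598, 683 and 533 bp in knockdown, against 155, 190 and 445 bp in control. At both sites the groups were separate, as they were, with knockdown higher, at 47.2% of all sites in the genome that all 6 libraries called. The same share is the background for the shared sites of the other windows.

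**Figure D3:**
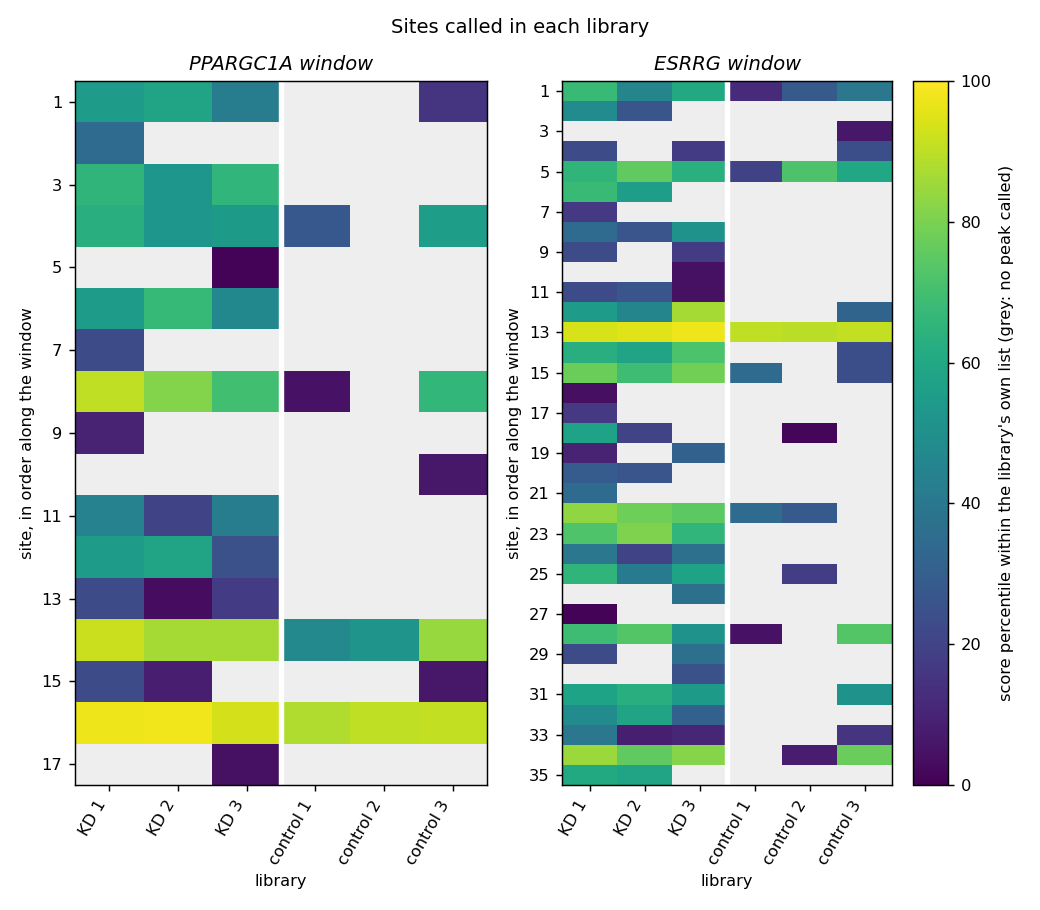
Sites of the PPARGC1A window (left, 17 sites) and of the ESRRG window (right, 35 sites) in order along the window (vertical axis) by library (horizontal axis, knockdown, KD, left of control). Colour gives the score percentile within the library's own list and grey means that no peak was called. Rows with colour in all 3 knockdown columns and grey in all control columns are the 5 sites in each window called in knockdown only.

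PPARA, the nuclear receptor that senses fatty acids, turned on a single control library. Its window (chr22, 46.53 to 46.66 Mb) held 10, 7 and 7 peaks in knockdown, against 6, 1 and 7 in control. Control replicate 2 was far below the other 5 libraries, which overlapped. The relative log2 change was 0.25 with a 95% interval of -0.93 to 1.42 (limma, adjusted p = 0.858), and it was -0.44 without that library (limma adjusted p = 0.189). Of the 10 sites, 4 were called in every library except control replicate 2. The site that all 6 libraries called, chr22:46645727-46646746, covered 1005, 821 and 958 bp in knockdown, against 464, 592 and 735 bp in control, with separate groups.

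The window of ESRRA, the estrogen-related receptor alpha (chr11, 64.06 to 64.10 Mb), held 5, 7 and 7 peaks in knockdown, against 3, 6 and 6 in control. The groups overlapped. The relative log2 change was -0.40 with a 95% interval of -0.99 to 0.19 (limma, adjusted p = 0.290), and the difference from ESRRG was not tested. It passed the threshold as lower with the stronger 50% of each list (-0.61, limma adjusted p = 0.0214) and with covered bases (-0.47, limma adjusted p = 0.0398). Under these settings 1228 of 7616 and 1141 of 13875 rows were lower. Both are shares of the library. Before scaling, peaks in the ESRRA window covered 5225, 5991 and 4693 bp in knockdown, against 3250, 4178 and 4706 bp in control. With the stronger 50% the ESRRA window held 4, 4 and 3 peaks in knockdown, against 3, 4 and 4 in control. The ESRRA change was nearer 0 without knockdown replicate 1 (-0.15, limma adjusted p = 0.717) and with random thinning (-0.20, limma adjusted p = 0.772), and -0.63 without control replicate 1 (limma adjusted p = 0.163). At 25 sites per 100 kb this window was the densest of the 10. It has close neighbours by name in RefSeq, with TRMT112 overlapping ESRRA and PRDX5 next to it, so that a site here cannot be given to ESRRA alone. The shared site with the highest lowest rank, chr11:64084218-64086105, had score percentiles of 96.7, 96.7 and 97.5 in knockdown and 95.2, 94.1 and 95.7 in control. Its peaks covered 1289, 1824 and 1372 bp in knockdown, against 964, 1318 and 1381 bp in control, and the groups overlapped. The other shared site, chr11:64071537-64074514, stood at percentiles 94.6, 91.2 and 95.6 in knockdown and 96.5, 97.0 and 96.2 in control, so that it was the higher-ranked of the pair in each control library and the lower-ranked in each knockdown library.

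The genes of fatty acid uptake had little open chromatin called around them. The CD36 window (chr7, 80.21 to 80.33 Mb) held 2, 2 and 1 peaks in knockdown, against 1, 0 and 1 in control. The LPL window (chr8, 19.78 to 19.84 Mb) held 1 peak in each knockdown library, against 0, 0 and 1 in control. Peaks in the CD36 window covered 530, 393 and 315 bp in knockdown, against 142, 0 and 254 bp in control, so that the groups were separate in covered bases though they overlapped in peak number. The windows of PPARA and CKMT2 had the same pattern, and its share over the genome was not computed. Neither the CD36 nor the LPL window was tested. No site of the CD36 or LPL window was called in all 6 libraries. The single LPL site was found in each knockdown library and in 1 control library, and its peak covered 175, 1178 and 142 bp in knockdown, against 191 bp in control replicate 3.

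FABP3, the cytoplasmic carrier, had more. Its window (chr1, 31.82 to 31.86 Mb) held 3, 6 and 3 peaks in knockdown, against 1, 1 and 2 in control. The groups were separate, with knockdown replicate 2 highest. The relative log2 change was 0.52 with a 95% interval of -0.21 to 1.24 (limma, adjusted p = 0.427). It was 0.25 without knockdown replicate 2 (limma adjusted p = 0.885) and 0.77 without knockdown replicate 1 (limma adjusted p = 0.363). With lists of equal length each of the 6 libraries held 1 peak, so that the added peaks were among the weaker of their lists. One site, chr1:31841512-31841959, was called in all 3 knockdown libraries only, at percentiles of 48.4, 20.5 and 17.8. The peak that remained in every list lay in chr1:31844969-31846991. In the full lists, all peaks of this site together covered 1894, 1362 and 1812 bp in knockdown, against 946, 1070 and 1207 bp in control, with separate groups. In RefSeq ZCCHC17 overlaps FABP3, so that these sites cannot be given to FABP3 alone.

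The windows of the mitochondrial genes CPT1B and PDK4 held the highest-ranked sites of the 10 windows, in both groups. PDK4, the kinase that inhibits pyruvate dehydrogenase, had chr7:95237771-95238624 at percentiles 99.7, 99.4 and 99.4 in knockdown and 98.5, 98.8 and 99.2 in control. The window of CPT1B, the muscle form of the carnitine transferase, had chr22:51020548-51022175 at 99.6, 99.4 and 99.1 in knockdown and 98.0, 97.5 and 99.1 in control. The site of PDK4 covered 824, 854 and 686 bp in knockdown, against 701, 640 and 676 bp in control, and the groups overlapped. That of CPT1B covered 1579, 1297 and 1436 bp in knockdown, against 1243, 987 and 1123 bp in control, and the groups were separate. CHKB is the next gene to CPT1B in RefSeq, so that this site cannot be given to CPT1B alone and may belong to CHKB.

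Around these strong sites the knockdown lists added little. The PDK4 window (chr7, 95.19 to 95.25 Mb) held 3 peaks in each knockdown library, against 3, 4 and 2 in control. The CPT1B window (chr22, 50.99 to 51.03 Mb) held 5, 4 and 4 peaks in knockdown, against 5, 4 and 3 in control. Mean numbers were equal at PDK4, and at CPT1B they were 4.33 in knockdown and 4 in control. In the longer knockdown lists the mean shares were thus lower. The relative log2 change was -0.72 for PDK4 (95% interval -1.42 to -0.02, limma adjusted p = 0.149) and -0.64 for CPT1B (-1.25 to -0.02, limma adjusted p = 0.142). Without control replicate 3 both passed the threshold, at -1.06 for PDK4 (limma adjusted p = 0.0321) and -0.93 for CPT1B (limma adjusted p = 0.0324). PDK4 did so also with covered bases as a share of the library (-0.64, limma adjusted p = 0.0448). Before scaling, peaks in the PDK4 window covered 1993, 2292 and 1546 bp in knockdown, against 1830, 1538 and 1537 bp in control. Of all rows, 877 of 13937 were lower without control replicate 3, and 1141 of 13875 with covered bases. With lists of equal length the changes were nearer 0, at -0.28 for PDK4 and -0.22 for CPT1B (limma adjusted p = 0.576 for each). CPT1B was at -0.04 with the stronger 50% of each list (limma adjusted p = 0.484) and -0.41 without control replicate 1 (limma adjusted p = 0.354), and PDK4 at -0.46 without control replicate 2 (limma adjusted p = 0.361).

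CKMT2, the mitochondrial creatine kinase of striated muscle, had 5, 3 and 2 peaks in its window (chr5, 80.51 to 80.58 Mb) in knockdown, against 2, 3 and 2 in control. The groups overlapped. The relative log2 change was -0.38 with a 95% interval of -1.06 to 0.30 (limma, adjusted p = 0.386). It was -0.16 without control replicate 2 (limma adjusted p = 0.718), -0.20 without knockdown replicate 3 (0.664), -0.57 without knockdown replicate 1 (0.375) and -0.58 without control replicate 3 (0.181). At chr5:80528051-80529581, its leading site, peaks covered 1378, 1169 and 1371 bp in knockdown, against 1102, 894 and 1107 bp in control. At the other site called in all 6 libraries, chr5:80541294-80542243, they covered 950, 459 and 504 bp in knockdown, against 281, 185 and 297 bp in control. The groups were separate at both, and the ratio of means at chr5:80541294-80542243, 2.51, was the highest of the shared sites in the 10 windows.

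**Figure D4:**
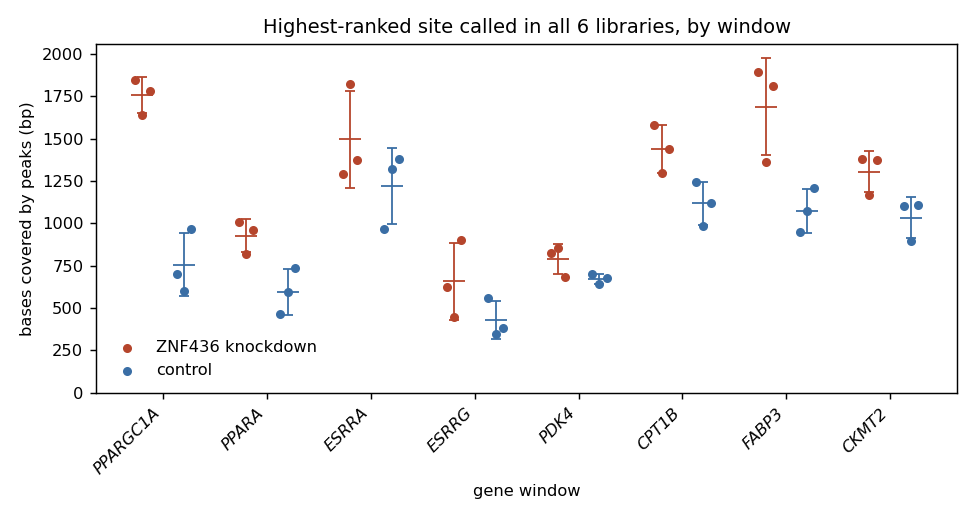
Bases covered by peaks (vertical axis, bp) at the highest-ranked site called in all 6 libraries, for the 8 windows that have one (horizontal axis), with a point per library, a bar for the mean and whiskers for the SD of 3 knockdown (red) and 3 control (blue) libraries. The knockdown mean is the higher in each window, and the gap at PPARGC1A is 1757 against 756 bp.

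Taken over the 10 windows, 11 of 94 sites (11.7%) were called in all 3 knockdown and no control library, beside 7.72% of all sites, and 10 of the 11 lay at PPARGC1A or ESRRG. The opposite pattern had 0 of the 94, beside 0.131% of all sites. All 6 libraries called 16 sites (17.0%), beside 18.2% of all. In number of libraries, 70 of the 94 sites (74.5%) were called in more knockdown than control libraries and 6 (6.38%) in fewer, against 65.4% and 12.1% of all sites. None of these differences from the genome was tested. Median width was 488 bp for the knockdown-only sites (353 bp over the genome) and 1026 bp for the sites of all 6 libraries (873 bp over the genome).

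**Figure D5:**
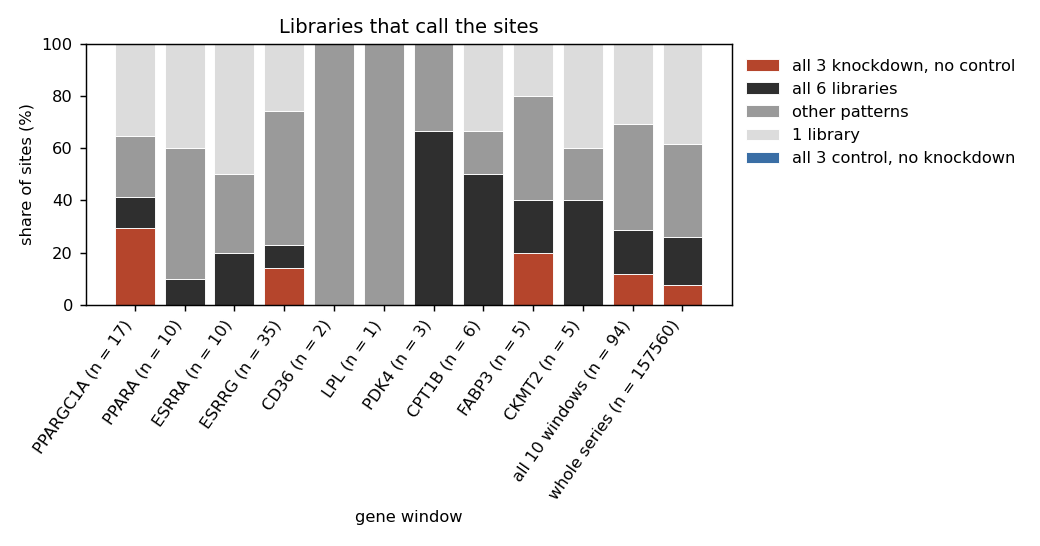
Share of sites (vertical axis, percent) by the libraries that called them, for each window, the 10 windows together and the whole series (horizontal axis, with the number of sites). Sites called in all 3 knockdown and no control library (red) make up 29.4% at PPARGC1A, 14.3% at ESRRG and 1 of 5 sites at FABP3, 11.7% over the 10 windows and 7.72% in the whole series.

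At the 16 sites that all libraries called, the mean of covered bases was higher in knockdown at 15, the exception being chr22:51016849-51017495 in the CPT1B window, with 362 ± 139 bp in knockdown and 408 ± 72.3 bp in control (SD, n = 3 each). The groups were separate, with knockdown higher, at 7 of the 16, beside 47.2% of all 28749 such sites in the genome. The ratio of means had a median of 1.30 over the 16 sites and 1.37 over all of them. The extent of shared sites in these windows thus differed between the groups about as much as elsewhere.

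With lists of equal length, 3 sites of the windows were called in all 3 knockdown and no control library. They were chr4:23819642-23820168 at PPARGC1A and chr1:217076516-217077057 at ESRRG, both named above, and chr1:216923474-216923729 at ESRRG, which control replicate 3 called in its full list. The last was chosen for naming after its values were seen. The 8 other sites of PPARGC1A and ESRRG called only in knockdown, and that of FABP3, thus lost this pattern once the weaker peaks of the lists were left out.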

How the data were processed

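Peaks of 6 ATAC-seq libraries were used. Per the submitters' processing notes, Bowtie2 2.4.5 and bedtools 2.30.0 were used with genome build hg19, with no role stated for either tool. Each deposited list holds, per peak, the position and an integer score, the peak caller's own value, which served only to rank peaks within a list. Peak names begin with MACS and carry 1 library's name, from which a separate call for each library was inferred. For the caller's threshold, the Tn5 shift and duplicate removal the entry is: not given in the sources used here. These lists hold no reads, so depth is unknown.

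Peaks were counted per window and per 100 kb bin of chromosomes 1 to 22 and X by midpoint. Rows with a mean of at least 2 peaks were fitted across the whole table by limma 3.58.1 (trended, robust) in R 4.3.3 on log2((peaks + 0.5) / library total × median total), adjusted by Benjamini-Hochberg and called at 0.05. Peaks of all libraries overlapping by at least 1 bp were merged to sites, and a library calls a site when 1 of its peaks lies in it. The code was tested on simulated data. Counting used Python 3.11.15, pandas 2.3.3 and numpy 2.4.6. Promoter sequences and neighbouring gene names came from RefSeq (GRCh38.p14), whose coordinates were not matched to hg19. The 10 genes, the lists and the tests were chosen with earlier results of these data known. All 10 genes are named; sites are named as the best ranked called in all 6 libraries per window, and up to 3 per window called in all libraries of 1 group only, and any other named site was chosen after its values were seen. Lists of other metabolic genes and of cell type markers need an hg19 annotation and are not analysed here.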

Additional observations from a re-analysis of the deposited data

How the results depend on the processing

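By limma, 1 window was higher and 0 lower. There were 0 higher with lists of equal length, with or without the filter, and with random thinning, 3 higher without scaling, 1 lower with the stronger 50% of each list, and 2 higher and 2 lower by covered bases. Over all rows, 5822 of 13443 were higher without scaling, so that 3 of 8 windows is near the background there. With the stronger 50%, 1228 of 7616 rows were lower, and by covered bases 844 of 13875 were higher and 1141 lower. Leaving out a library gave 0 to 1 higher and 0 to 2 lower windows. In these fits 3 to 690 rows were higher and 61 to 877 lower, of 12415 to 14328 tested. Counting peaks with any overlap with the window gave the main values again at every tested window. Of 140 values of single windows under alternatives, these included, 121 kept direction and side of the threshold, 7 lost and 8 gained a call, and 4 reversed. These 4 were CKMT2 with random thinning (0.20), PPARA without control replicate 2 (-0.44; its range with a library left out was -0.44 to 0.63), and PPARA (-0.002062) and FABP3 (-0.01533) with equal lists and no filter; the causes were not tested.

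Sites called in knockdown only numbered 11, but 3 with equal lists, 6 with the stronger 50%, 1 after random thinning, 22 where 2 of 3 libraries were enough, and 11 to 19 with a library left out. Those called in control only numbered 0, and 1 with random thinning. Those called in all 6 numbered 16, but 5 with random thinning, 30 with 2 of 3 libraries and 3 when a peak had to cover 50% of the site, and 16 to 25 with a library left out. Shared sites with separate bases numbered 7, but 2 with random thinning, 1 with 50% of the site, and 7 to 12 with a library left out, where fewer libraries must meet the condition. The peak ratio was 1.18 with equal lists and 1.17 with random thinning, and the ratio of bases 1.59 and 1.33 under these same settings. Requiring 50% of the site or of the peak could move nothing. The rule on 50% of the site, equal lists without the filter and all counts of separate bases were chosen after seeing the data.

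With the replicate number as a block, 1 window was higher and 0 lower (ESRRG 0.84, limma adjusted p = 0.0192), and no call changed. Libraries of the same number are not taken as pairs: their deviations from the group means correlated by -0.016, 0.034 and 0.011 for numbers 1, 2 and 3, and another combination reached 0.035. Depth is unknown and limits every count.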
